A study of Homo sapiens with 2 samples.

Results

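The 10 genes described here encode transcription factors of haematopoietic stem and progenitor cells and of the early myeloid lineage: TAL1, LYL1, LMO2, SPI1, FLI1, ERG, MECOM, MEIS1, GFI1 and IRF8. They were chosen by name out of 20176 annotated protein-coding genes. Their DNA methylation was compared between 1 library of SKNO-1, an acute myeloid leukaemia cell line that carries the RUNX1-RUNX1T1 (AML1-ETO) fusion, and 1 library of SKNO1-siAE. SKNO1-siAE is a line derived from SKNO-1 by infection with the lentiviral vector pRRLcPPT.hPGK carrying siAGF1 oligonucleotides against the fusion site of that mRNA. Both lines carry the fusion gene and grew in the same medium, and cells with an empty vector were not analysed here. Bisulfite sequencing does not measure RNA, so the silencing of the fusion could not be checked in these libraries, and infection, passage and silencing cannot be told apart.

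Blood stem cells and progenitors are held by a small set of transcription factors that bind many of the same enhancers. TAL1 and LYL1 are basic helix-loop-helix proteins that bind DNA with E-protein partners and are joined to GATA factors by the bridging protein LMO2. FLI1, ERG and SPI1 (PU.1) belong to the ETS family, and RUNX1, whose fusion defines this leukaemia, binds with them at many blood enhancers. MECOM (EVI1) and MEIS1 act in stem cells and in leukaemia, GFI1 is a repressor needed in stem cells and neutrophils, and IRF8 directs progenitors towards monocytes and dendritic cells. Active starts with many CpGs are usually unmethylated, while CpGs inside transcribed genes are usually methylated.

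In this assay bisulfite turns unmethylated cytosine into a base read as thymine, and probes capture the converted DNA of chosen regions. The methylation level of a site, a CpG cytosine on 1 strand, was the share of its reads that were methylated, from 0 to 1. The libraries held 83620068 and 82164216 site reads in SKNO-1 and SKNO1-siAE, and 3168726 sites had at least 5 reads in both, with median depths of 16 and 15. All differences below are SKNO-1 minus SKNO1-siAE. Averaged over the shared sites the levels were 0.587 and 0.655, a genome-wide difference of -0.0674. There was 1 library per line, so every test below compares the libraries and not the conditions. Intervals are 95% Wilson or Newcombe intervals on pooled reads and cover counting error only, and reads of 1 fragment can cover several sites.

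The 10 loci held 2937 of the shared sites. A promoter was taken from 1500 bp upstream to 500 bp downstream of every annotated transcript start, with overlapping stretches merged into windows that are numbered from the 5′ end of the gene. The 108 transcripts had 93 starts in 35 windows. Of these windows, 23 held at least 5 shared sites, 3 held fewer (FLI1 window 4, MEIS1 window 2 and IRF8 window 3) and 9 held none, of which ERG had 3 and MECOM 4. A site was called where its levels differed by at least 0.2 with an adjusted p under 0.05 (Fisher's exact test, 2-sided, Benjamini-Hochberg adjustment over all shared sites).

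The 10 promoters fell into distinct patterns. TAL1, LMO2 and ERG were far less methylated in SKNO-1 than in SKNO1-siAE, with promoter differences of -0.486, -0.454 and -0.467. FLI1 differed by -0.172, and most of that difference lay in 1 of its windows. GFI1, LYL1 and the start of SPI1 were nearly free of methylation in both libraries, whereas IRF8 and MEIS1 were methylated in both. MECOM lay at intermediate levels in both, with a difference of 0.0361 that ran from 0.0193 with pooled reads to 0.0631 with strands summed.

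Over the 10 promoters the median difference was -0.0790, with 3 promoters lower by at least 0.2, none higher and 7 within 0.2. FLI1, at -0.172, was past 0.2 as well under 4 of the alternatives, which makes 4 lower promoters: -0.263 with each library's own sites, -0.252 with promoters ending 1 bp upstream of the start, -0.210 with pooled reads and -0.202 with strands summed. Among 18559 measured promoters of protein-coding genes the median was -0.0131, with 13.8% lower and 2.64% higher by at least 0.2. Of the 1785 promoter sites of the 10 genes, 333 (18.7%) were called lower and 83 (4.65%) higher in SKNO-1, against 10.3% and 3.92% of all sites in promoters of protein-coding genes. Of the 1152 sites in their gene bodies, the annotated gene outside these windows, 141 (12.2%) were called lower and 73 (6.34%) higher, against 11.7% and 4.40% of all shared sites. Of the 10 bodies, LMO2 was lower by at least 0.2 and none was higher, where 10.9% and 2.74% of the bodies of protein-coding genes were. The LMO2 body was within 0.2 with at least 10 reads per site (-0.173) and with each library's own sites (-0.143), and the TAL1 body was past it with protein-coding transcripts only (-0.219). Of the 23 single windows, 9 were lower and 1 was higher by at least 0.2, against 14.5% and 3.40% of such windows of protein-coding genes. By at least 0.5, 3 were lower and none higher, against 4.10% and 0.818%.

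The stretches below carry runs of called sites in the promoters of TAL1, LMO2, FLI1 and ERG, outside their UTRs, followed by the distal LMO2 promoter, which differed in the opposite direction, and a stretch of GFI1, with little methylation in either library. They were chosen after the values were seen. Each is 300 bases of hg19 on the strand of its gene, and capitals mark the CpGs measured in both libraries.
TAL1 window 1, chr1:47696295-47696594, - strand: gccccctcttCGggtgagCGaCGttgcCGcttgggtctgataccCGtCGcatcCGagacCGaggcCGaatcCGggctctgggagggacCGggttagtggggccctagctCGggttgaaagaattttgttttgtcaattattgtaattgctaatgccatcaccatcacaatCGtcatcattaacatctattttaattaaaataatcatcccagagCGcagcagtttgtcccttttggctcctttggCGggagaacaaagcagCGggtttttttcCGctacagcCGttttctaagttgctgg
LMO2 window 2, chr11:33891708-33892007, - strand: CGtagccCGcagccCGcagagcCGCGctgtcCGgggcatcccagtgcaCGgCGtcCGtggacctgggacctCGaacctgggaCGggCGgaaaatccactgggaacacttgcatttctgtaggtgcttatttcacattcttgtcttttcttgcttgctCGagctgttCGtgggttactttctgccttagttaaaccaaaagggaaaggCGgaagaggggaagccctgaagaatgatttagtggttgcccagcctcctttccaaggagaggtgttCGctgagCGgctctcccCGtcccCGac
FLI1 window 2, chr11:128563039-128563338, + strand: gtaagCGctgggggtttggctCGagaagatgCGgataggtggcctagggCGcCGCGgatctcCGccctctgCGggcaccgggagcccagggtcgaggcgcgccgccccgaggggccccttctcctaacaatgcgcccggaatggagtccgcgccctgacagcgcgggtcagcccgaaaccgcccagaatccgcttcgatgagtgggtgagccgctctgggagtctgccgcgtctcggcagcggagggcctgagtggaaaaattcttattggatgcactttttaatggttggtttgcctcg
ERG window 3, chr21:39870485-39870784, - strand: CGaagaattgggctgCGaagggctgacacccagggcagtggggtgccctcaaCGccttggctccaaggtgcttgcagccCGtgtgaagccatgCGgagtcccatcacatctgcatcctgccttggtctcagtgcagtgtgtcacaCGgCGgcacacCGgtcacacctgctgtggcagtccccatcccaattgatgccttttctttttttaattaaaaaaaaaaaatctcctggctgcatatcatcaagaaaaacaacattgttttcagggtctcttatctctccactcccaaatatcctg
LMO2 window 1, chr11:33914348-33914647, - strand: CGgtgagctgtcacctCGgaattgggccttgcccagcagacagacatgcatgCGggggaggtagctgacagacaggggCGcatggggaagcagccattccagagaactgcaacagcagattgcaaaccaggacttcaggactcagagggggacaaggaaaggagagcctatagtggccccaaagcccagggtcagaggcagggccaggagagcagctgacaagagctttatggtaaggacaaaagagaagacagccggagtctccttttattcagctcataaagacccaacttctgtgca
GFI1 window 1, chr1:92950538-92950837, - strand: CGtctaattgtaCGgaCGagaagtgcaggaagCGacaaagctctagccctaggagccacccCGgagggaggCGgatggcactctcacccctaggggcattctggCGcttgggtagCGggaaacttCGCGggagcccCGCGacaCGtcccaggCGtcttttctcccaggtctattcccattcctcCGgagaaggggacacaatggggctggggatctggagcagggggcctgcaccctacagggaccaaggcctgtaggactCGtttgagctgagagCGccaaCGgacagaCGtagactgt

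In the TAL1 stretch, SKNO-1 had 68 methylated reads of 862 and SKNO1-siAE had 1109 of 1147, and all 33 sites were called. In the LMO2 window 2 stretch it was 2 of 395 against 633 of 654 reads, with 26 of 26 sites called. The FLI1 stretch had 0 of 172 against 98 of 101 reads, and its 8 measured sites were all called, but it holds 30 CpGs, and most were not measured in both libraries. The ERG stretch is poorer in CpGs, with 8 in 300 bases, and had 16 of 346 against 358 of 383 reads. The GFI1 stretch held 19 CpGs and had 0 of 665 against 11 of 542 methylated reads. High CpG content was thus found both where the libraries differed widely and where both were near 0.

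TAL1 (ENSG00000162367, chr1:47681962-47697897, - strand) had a promoter difference of -0.486. LMO2 and ERG were close to it, and LMO2 or ERG was past TAL1 when strands were summed, reads pooled or only protein-coding transcripts used. Its window 1, with 5 of its 6 starts including that of the canonical transcript TAL1-206, held 148 sites, which averaged 0.249 in SKNO-1 and 0.716 in SKNO1-siAE. Pooled over sites, SKNO-1 had 1330 methylated reads of 3349 (0.397, interval 0.381 to 0.414) and SKNO1-siAE had 2607 of 3483 (0.748, interval 0.734 to 0.763). Of these sites 75 were called lower and none higher. At 46 sites the level was under 0.1 in SKNO-1 and over 0.9 in SKNO1-siAE. Just upstream of the start the libraries were both low, and the 250 bp downstream of it held no shared site. In the 250 bp before the canonical start, 22 sites had mean levels of 0 and 0.0341. From 500 to 251 bp upstream the level was 0.0333 in SKNO-1 and over 0.9 in SKNO1-siAE, with 9 of 10 sites called lower, and from 1000 to 1749 bp downstream, in introns and noncoding exons, they were at most 0.180 in SKNO-1 and at least 0.961 in SKNO1-siAE. From 2250 to 2499 bp downstream both libraries were methylated, at 0.884 and 0.937.

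The site with the smallest p of TAL1, at chr1:47696349 in an intron, had 0 of 50 methylated reads in SKNO-1 and 75 of 75 in SKNO1-siAE (Fisher's exact test, adjusted p = 1.04e-32). Window 2, around the start of a single shorter transcript, held 9 measured sites with 0 of 98 against 96 of 118 methylated reads, and 8 were called lower. All 9 lay on the minus strand and over 1000 bp upstream of that start, and the start itself held no shared site. The 500 bp tile from 47696501 to 47697000 differed by -0.985, the largest difference of any measured tile in the 10 loci. The tiles from 47696001 to 47696500 and from 47690501 to 47691000 differed by -0.799 and -0.795. The body of TAL1 outside its promoter windows differed by -0.0829 over 38 sites, a value that ran from -0.219 (windows of protein-coding transcripts only) to 0.0762 (sites with at least 10 reads).

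LYL1 (ENSG00000104903, chr19:13209847-13213975, - strand), the closest relative of TAL1, had no methylated read at the shared sites of its promoter. The 38 sites of its single window had 0 of 614 reads in SKNO-1 (upper bound of the interval 0.00622) and 0 of 303 in SKNO1-siAE (upper bound 0.0125). Only 21.6% of the CpG cytosines in this window were measured in both libraries. The gene body was also low, at 0.0404 and 0.0427 over 22 sites, and 1 intronic site was called lower, with 0 of 9 against 7 of 11 methylated reads (Fisher's exact test, adjusted p = 0.0310). TAL1 and LYL1 encode closely related proteins, and their promoters differed by -0.486 and 0.

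LMO2 (ENSG00000135363, chr11:33880122-33913623, - strand) differed in opposite directions at its promoters. Its proximal window 2, with the starts of 4 transcripts, held 69 sites with mean levels of 0.148 in SKNO-1 and 0.917 in SKNO1-siAE. Of the CpG cytosines in this window, only 18.9% were measured in both libraries. Pooled, SKNO-1 had 205 methylated reads of 1040 and SKNO1-siAE had 1101 of 1189, a difference of -0.729 (interval -0.756 to -0.699). Of the 69 sites 51 were called lower and none higher, and 40 were under 0.1 in SKNO-1 and over 0.9 in SKNO1-siAE. The difference ran through the start: in the first 250 bp downstream of the most upstream start of this window, the 16 sites had levels of 0.0125 and 0.978 and were all called. The strongest site of LMO2, at chr11:33891717 in a noncoding exon, had 0 of 29 against 52 of 52 methylated reads (Fisher's exact test, adjusted p = 5.64e-20). The tiles of LMO2 lower by at least 0.5 were those from 33892001 to 33892500 (-0.890), 33891501 to 33892000 (-0.876) and 33890501 to 33891000 (-0.630).

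The distal LMO2 window 1, at the canonical start of LMO2-201, far upstream of window 2, differed the other way. Its 25 sites had mean levels of 0.244 in SKNO-1 and 0.0100 in SKNO1-siAE, with 141 of 589 against 9 of 442 methylated reads, and 7 sites were called higher and none lower. It was the only measured window of the 10 genes that was higher in SKNO-1 by at least 0.2. All 7 lay more than 250 bp upstream of the start. From 1000 to 751 bp upstream the 4 sites had a level of 0.869 in SKNO-1 and 0 in SKNO1-siAE, while within 250 bp of the start no read was methylated in either library (0 of 306 and 0 of 138). The tile of LMO2 from 33914501 to 33915000 was higher in SKNO-1 by 0.571. Window 3, further into the gene, was methylated in both, at 0.971 and 0.973 (0.970 and 0.954 on pooled reads). The LMO2 body differed by -0.257 over 62 sites, of which 17 were called lower. All 17 lay in an intron from 33890019 to 33890573, next to window 2. The body sites outside this stretch were methylated in both libraries, at 0.8 or more. The whole promoter difference of -0.454 became -0.293 when reads were pooled over sites.

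**Figure D1:**
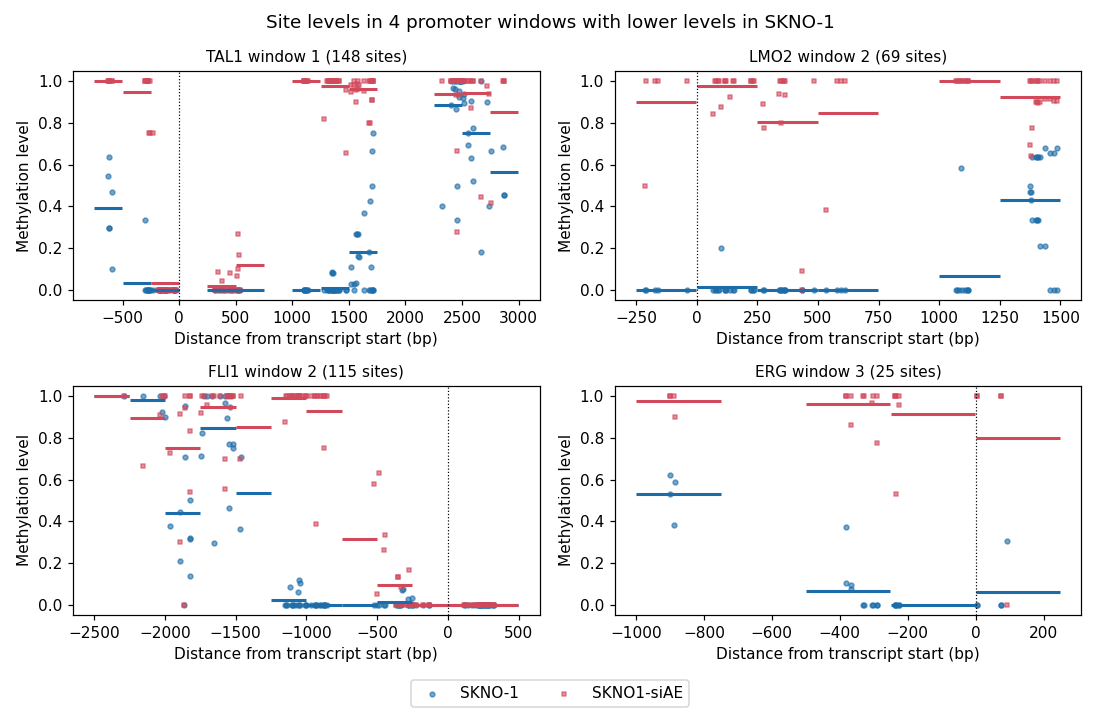
Methylation level of single sites against distance from the transcript start (bp) in windows of TAL1, LMO2, FLI1 and ERG, with lines at the mean of each 250 bp step. SKNO1-siAE lies near 1 where SKNO-1 lies near 0 upstream and downstream of the TAL1 start, upstream of the FLI1 start, and across the starts of LMO2 window 2 and ERG window 3.

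ERG (ENSG00000157554, chr21:39751949-40033704, - strand) differed at both of its measured windows. Window 3, with the canonical start of ERG-201, held 25 sites with mean levels of 0.123 in SKNO-1 and 0.920 in SKNO1-siAE. This difference of -0.797 was close to that of TAL1 window 2 (-0.795), which was the larger on pooled reads (-0.814) but whose measured sites did not reach its start. Pooled, 104 of 588 reads were methylated against 534 of 575 (difference -0.752, interval -0.786 to -0.711), and 23 of the 25 sites were called lower. Here the canonical start itself differed: within 250 bp on each side, SKNO-1 had 4 methylated reads of 171 and SKNO1-siAE had 221 of 249, and 10 of 11 sites were called lower. The site with the smallest p, at chr21:39870732 in an intron of a longer transcript, had 0 of 30 against 27 of 27 methylated reads (Fisher's exact test, adjusted p = 1.31e-14).

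ERG window 1, at the 5′ end of the gene, was mixed. Its 46 sites had mean levels of 0.587 and 0.876, with 17 sites called lower and 3 higher in SKNO-1. From 500 to 749 bp downstream of its first start the levels were 0.0278 and 0.974, and in the 250 bp before that start they were 0.957 and 0.824. Only 11.7% of its CpG cytosines were measured in both libraries. The tiles of ERG past 0.5 were those from 40033001 to 40033500 (-0.910) in window 1, and from 39870501 to 39871000 (-0.903) and 39870001 to 39870500 (-0.738) in window 3. The ERG body had levels of 0.729 and 0.735 over 69 sites, and its difference ran from -0.0804 with promoters ending 1 bp upstream of the start to 0.0451 with pooled reads.

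FLI1 (ENSG00000151702, chr11:128556430-128683162, + strand), the closest relative of ERG, differed mainly at its window 2, which holds the canonical start of FLI1-205 and overlaps the antisense gene SENCR. Its 115 sites had mean levels of 0.225 and 0.531, with 688 of 2660 against 1088 of 1866 methylated reads (difference -0.324, interval -0.352 to -0.296), and 37 sites were called lower and none higher. Unlike in ERG, the canonical start was unmethylated in both libraries, with 0 of 331 and 0 of 217 reads methylated within 250 bp. From 1250 to 751 bp upstream, across the start of another transcript, the levels were at most 0.0216 in SKNO-1 and at least 0.928 in SKNO1-siAE, and every measured site there was called lower. The site with the smallest p, chr11:128562908 in a UTR exon, had 0 of 29 against 38 of 38 methylated reads (Fisher's exact test, adjusted p = 3.66e-17). The FLI1 tiles from 128562501 to 128563000 and from 128563001 to 128563500 differed by -0.937 and -0.814.

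FLI1 window 1, at the most upstream start, was methylated in both libraries, at 0.905 and 0.942 over 112 sites. Window 3 had levels of 0.0227 and 0.248 over 5 sites, of which 1 was called lower. The body levels were 0.852 and 0.855 over 360 sites, or 0.833 and 0.871 on pooled reads. The intronic tile from 128603501 to 128604000 was nevertheless higher in SKNO-1, at 0.937 against 0.362. In the 5 Mb around FLI1, SKNO-1 had more site reads than SKNO1-siAE, with a log2 ratio of 0.533, and the same held around IRF8 (0.623). At the other 8 genes this ratio was between 0.0131 and 0.0623. Its part in the FLI1 and IRF8 values was not tested.

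SPI1 (ENSG00000066336, chr11:47376411-47400098, - strand), the third ETS gene and a master regulator of myeloid cells, had an unmethylated start in both libraries. Within 250 bp of its canonical start there were 0 methylated reads of 161 in SKNO-1 and of 194 in SKNO1-siAE. From 1500 to 751 bp upstream the level was at least 0.922 in both. Over the 27 sites of its window the mean levels were 0.315 and 0.329 and no site was called. Pooled over reads they were 0.571 and 0.659 (difference -0.0885, interval -0.140 to -0.0362). The SPI1 body was methylated at 0.934 and 0.841 over 28 sites, and 2 sites were called higher in SKNO-1. Its difference of 0.0926 became 0.176 with at least 10 reads per site. One of them, at chr11:47395980 in an intron, had 15 of 19 against 7 of 29 methylated reads (Fisher's exact test, adjusted p = 0.00302).

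GFI1 (ENSG00000162676, chr1:92938600-92952482, - strand) had the unmethylated promoter with the most measured sites. Window 1, with 294 sites, had 30 of 5062 methylated reads in SKNO-1 and 47 of 5524 in SKNO1-siAE, a difference of -0.00258 (interval -0.00588 to 0.000702). Window 2, with 101 sites, had 6 of 1880 and 3 of 1781. A level under 0.1 in both libraries was found at 282 of the 294 sites and at 98 of the 101. Only 2 sites were called, both lower in SKNO-1, and the one with the smaller p, at chr1:92952581, had 0 of 38 against 7 of 31 methylated reads (Fisher's exact test, adjusted p = 0.0176). Promoters under 0.1 in both libraries made up 23.5% of those of protein-coding genes, and GFI1 and LYL1 were among them.

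IRF8 (ENSG00000140968, chr16:85932722-85956212, + strand) was the opposite case, a CpG-rich start that was methylated in both libraries. The ratio of observed to expected CpGs in its window 1 was 0.875, the highest of the 35 windows. Within 250 bp of its canonical start SKNO-1 had 1520 methylated reads of 1581 and SKNO1-siAE had 625 of 641 (difference -0.0136, interval -0.0279 to 0.00376). Over the whole of window 1 the mean levels were 0.824 and 0.911, and 10 sites were called lower and 2 higher. Pooled over reads the levels of window 1 were closer, at 0.871 and 0.896 (difference -0.0251, interval -0.0471 to -0.00209). The lower ones lay mostly upstream, where 13 sites from 1000 to 751 bp before the start had levels of 0.571 and 0.934. Window 2 had levels of 0.709 and 0.844, with 6 sites called lower. The site with the smallest p, at chr16:85937497 in an intron, had 0 of 41 against 8 of 8 methylated reads (Fisher's exact test, adjusted p = 9.20e-08). Promoters over 0.7 in both libraries made up 21.4% of those of protein-coding genes, and IRF8 and MEIS1 were the members among them.

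**Figure D2:**
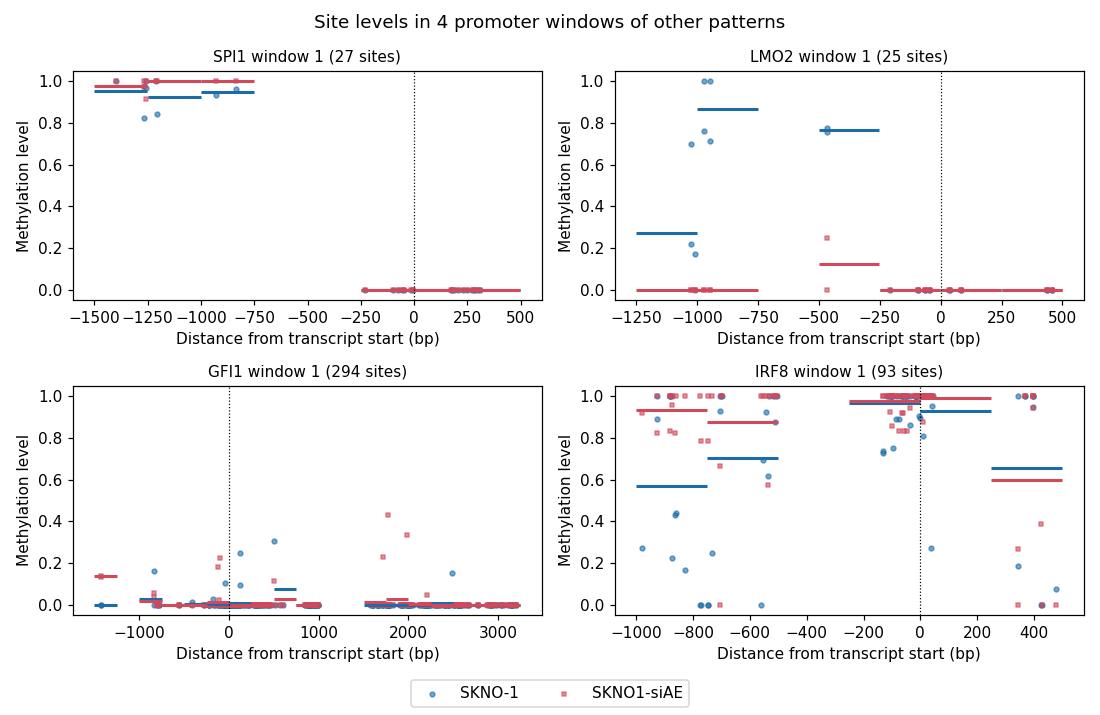
Methylation level of single sites against distance from the transcript start (bp) in SPI1 window 1, LMO2 window 1, GFI1 window 1 and IRF8 window 1. The starts of SPI1, LMO2 and GFI1 lie near 0 and that of IRF8 near 1 in both libraries, and the 7 LMO2 sites called higher in SKNO-1 lie upstream.

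MEIS1 (ENSG00000143995, chr2:66660584-66801001, + strand), a homeobox partner of HOX proteins, and MECOM held the most sites called in both directions. MEIS1 window 1 merged 11 starts over 9256 bp and held 363 sites, with mean levels of 0.706 and 0.758, of which 58 were called lower and 41 higher. The direction changed along the window. From 750 to 501 bp upstream of the canonical start the levels were 0.731 in SKNO-1 and 0.181 in SKNO1-siAE, with 9 of 11 sites called higher, and these sites make up the tile from 66661501 to 66662000 (0.550). In the 250 bp step that begins 1750 bp upstream they were 0.657 and 0.929, with 7 of 20 called lower. Within 250 bp of the canonical start of MEIS1 the level was 0.788 against 0.654, and 7 of 34 sites were called higher and none lower. It was the one member whose canonical start was more methylated in SKNO-1 by over 0.1.

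The other MEIS1 windows were 0.791 and 0.853 (window 3, 88 sites, 12 called lower), 0.460 and 0.737 (window 5, 7 sites), 0.0226 and 0.392 (window 2, 4 sites, all called lower) and 0.337 and 0.237 (window 6, 6 sites). The MEIS1 body differed by -0.125, with 28 of 129 sites called lower and 5 higher. An intronic site at chr2:66706939 had 0 of 35 methylated reads in SKNO-1 and 33 of 33 in SKNO1-siAE (Fisher's exact test, adjusted p = 1.14e-17). Another intronic tile, from 66761501 to 66762000, had levels of 0.0885 and 0.629, with all 5 sites called lower.

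MECOM (ENSG00000085276, chr3:168801287-169381563, - strand) was partly methylated in both libraries at both of its main promoters. Window 1, with the canonical start of the long transcript MECOM-220, had levels of 0.401 and 0.423 over 53 sites, with 7 called lower and 5 higher. Pooled over reads its levels were 0.334 and 0.308, so the direction of this small difference turned. The strands of window 1 also differed in direction, with -0.222 on the plus strand and 0.132 on the minus strand. Window 3, with the starts of 11 shorter transcripts, had levels of 0.530 and 0.444 over 99 sites, with 23 called higher and 15 lower, and pooled levels of 0.480 and 0.438. In window 3 the 7 sites from 1500 to 1251 bp upstream of its first start had levels of 0 and 0.509, and the 12 sites in the 250 bp after that start had 0.393 and 0.101. Differences of opposite sign therefore lay in the same window and partly cancelled in the mean. The 5 sites of window 2 had levels of 0.618 and 0.951.

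In the MECOM body 73 of 355 sites were called lower and 42 higher, with a mean difference of -0.0884. The site with the smallest p, at chr3:169122918 deep in an intron, had 0 of 75 methylated reads in SKNO-1 and 39 of 41 in SKNO1-siAE (Fisher's exact test, adjusted p = 7.81e-26). The intronic tile from 169380001 to 169380500, next to window 1, had levels of 0.402 and 0.964, with 12 of 23 sites called lower.

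**Figure D3:**
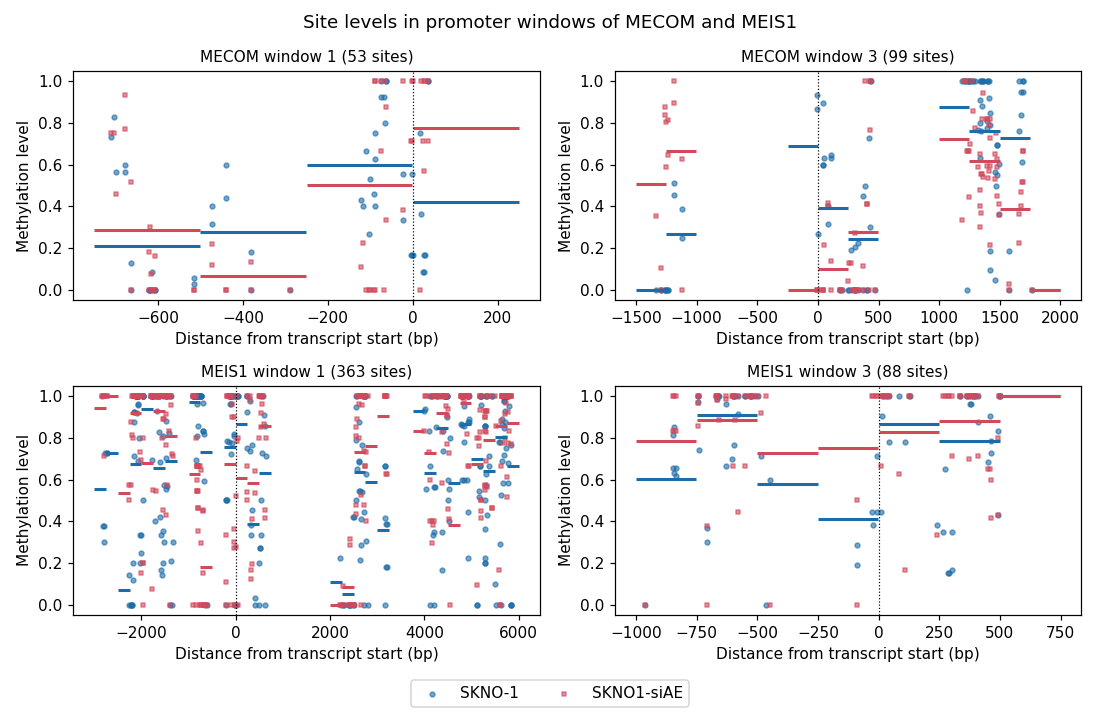
Methylation level of single sites against distance from the transcript start (bp) in windows of MECOM and MEIS1. Levels are spread from 0 to 1 in both libraries, and the library with the higher mean changes along each window.

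Set side by side, the canonical starts and their flanks gave a different picture from the promoters as a whole. Within 250 bp of the canonical start no read was methylated in either library at SPI1, LYL1, LMO2 and FLI1, TAL1 had 0 of 168 in SKNO-1 and 6 of 125 in SKNO1-siAE, and GFI1 was under 0.01 in both. ERG alone was lower in SKNO-1 by at least 0.2 at this start, and none was higher, against 13.0% and 3.34% of the 14882 measured starts of protein-coding genes. This interval was chosen after the values were seen.

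Along the loci, 152 tiles of 500 bp held at least 5 shared sites, and 34 were lower and 8 higher in SKNO-1 by at least 0.2, or 22.4% and 5.26%, against 17.4% and 4.70% of all 175081 measured tiles. By at least 0.5, 14 were lower and 3 higher, where all tiles gave 5.08% and 1.27%. The 14 lower tiles comprised 4 in TAL1, 3 in LMO2, 3 in ERG, 2 in FLI1, 1 in MECOM and 1 in MEIS1. Neither GFI1 nor LYL1 had a tile past 0.2, and IRF8 and SPI1 had none past 0.5. Outside the promoter windows, 12 of 70 tiles were lower and 4 higher by at least 0.2. These were close to the shares of all measured tiles, promoters included (17.4% and 4.70%).

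Promoters of 24 further transcription factor genes of blood had a median difference of 0.000181. Of these 3 were higher by at least 0.2 in SKNO-1, PBX3 (0.509, or 0.299 on pooled reads), HLX (0.379) and KLF4 (0.353), and 3 were lower, among them TCF12 (-0.343) and IRF4 (-0.242). Among promoters of protein-coding genes 2.64% were higher and 13.8% lower by at least 0.2. TCF12 encodes an E-protein partner of TAL1, and PBX3 a partner of MEIS1. The other 18 were within 0.2, although NFE2 (0.186) was past it on pooled reads (0.227). At the gene bodies 1 was higher and 2 were lower by at least 0.2, where 2.74% and 10.9% of the bodies of protein-coding genes were.

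Short motifs were searched on both strands in the 300 bases from 250 bp upstream of each canonical start. The RUNX motif TGTGGT was found in MEIS1 only among the 10 genes and in 10.7% of 19894 promoters of protein-coding genes, and its form with a CpG, TGCGGT, in none of the 10 and in 8.96%. The GATA motif AGATAA was found in TAL1, LYL1 and ERG and in 7.15% of promoters, the ETS motif CCGGAAG in MEIS1 and in 14.1%, and the E-box CAGCTG in none of the 10 and in 17.7%. In the whole promoter windows, 8 measured sites lay in a TGCGGT motif. That of LMO2 window 2, at chr11:33892246, had 0 of 18 against 16 of 16 methylated reads (Fisher's exact test, adjusted p = 2.19e-08), and 1 of MECOM window 3, at chr3:168864159, had 31 of 31 against 14 of 26 (adjusted p = 0.000207 by the same exact test). The 6 others, in ERG, MECOM, MEIS1 and TAL1, were not called.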

How the data were processed

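Capture bisulfite sequencing (MCC-Seq) gave 1 library for SKNO-1 and 1 for SKNO1-siAE. The authors converted genomic DNA with bisulfite, captured it with SeqCap Epi probes and sequenced paired reads. Reads were trimmed and aligned to hg19, and the submitters' processing notes name cutadapt 1.4.2 and BSMAP 2.73. The deposited values are raw counts of methylated and of unmethylated reads per CpG cytosine, with strands kept apart, and no site has fewer than 5 reads. The mean depth was 17.7 and 17.5 reads, so a single site's level is imprecise. Amplified reads, unequal capture of methylated and unmethylated strands and incomplete conversion could each change a level, and none was measured from these counts. The paper's supplement reports high and nearly equal conversion rates for both lines.

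From these counts the level of each site was computed, and levels of regions were means over the sites that both libraries covered by 5 or more reads. Genes and transcript starts came from GENCODE release 44 lifted to GRCh37. All 35067 shared sites of chromosome 21 fell on a CpG cytosine of the GRCh37 sequence on their own strand. Fisher's exact test was run on every shared site, and the script was tested on simulated data. The paper called regions with Metilene, which was not used here. The members and lists were chosen with earlier results of these data known. For each of the 10 genes the text names the windows with at least 5 shared sites, tiles past a difference of 0.5 (at most 3 in each direction) and the called site with the smallest p, and of 24 further genes those past 0.2 at the promoter, of which 1 is not reported here. Single 250 bp steps, other tiles, sites in motifs and the interval around the canonical start were chosen after their values were seen. Alternatives were at least 10 reads, summed strands, pooled reads, own sites of each library, other starts and intervals, Bonferroni adjustment, no minimum difference, and other tiles. Tools were python 3.11.15, numpy 2.4.6, pandas 2.3.3, scipy 1.17.1, numba 0.67.0, pysam 0.24.0, samtools 1.23.1 and matplotlib 3.10.9.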

Additional observations from a re-analysis of the deposited data

How the results depend on the processing

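The lower promoter methylation of TAL1, LMO2 and ERG in SKNO-1 kept its direction and stayed past 0.2 under every alternative run, from -0.539 to -0.365 for TAL1, from -0.504 to -0.293 for LMO2 and from -0.467 to -0.403 for ERG. A difference was counted as moved where it changed by more than the margin of its 95% interval on pooled reads, and a count where it changed by over 1.5 times. Of 158 alternative values, 99 stayed within these limits, 59 moved past them and 0 reversed a difference of at least 0.2. The median promoter difference of the 10 genes, -0.0790, became -0.105 with at least 10 reads per site, -0.0562 with the strands of a CpG summed and -0.0568 with starts of protein-coding transcripts only. The median body difference, -0.0445, became -0.0973 with strands summed, -0.0825 with each library's own sites and -0.0797 with promoters ending 1 bp upstream of the start, but -0.0233 with at least 10 reads per site and -0.0310 with pooled reads. With at least 10 reads the LYL1 promoter and the GFI1 body had too few sites, so those medians are over the other 9 genes. The promoter median of these 9 was the IRF8 value, -0.105, which was -0.0995 with at least 5 reads. Bonferroni adjustment left 4 promoter sites higher and 91 lower, and 10 body sites higher and 31 lower. Requiring a tile difference of at least 0.5 left 17 tiles of 42. The cause of these changes was not tested, apart from the stricter limits. The promoter difference of SPI1, -0.0140, ran from -0.0885 with pooled reads to 0.0427 with own sites, both within 0.2. No paired analysis was possible because there was 1 library per cell line. Depth limits single sites, and windows with few measured CpGs, such as ERG window 1 and TAL1 window 2, describe only part of a promoter.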
